A study of Mus musculus with 6 samples.

Results

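The subject here is the genes of the constitutive proteasome in NHE3-/- mouse colon. NHE3, the product of Slc9a3, is an exchanger that brings sodium from the gut lumen into epithelial cells in return for protons. Members were all genes whose symbol on the array annotation begins with Psma, Psmb, Psmc or Psmd and a number, without the inducible subunits Psmb8, Psmb9 and Psmb10. The rule took 37 genes of the 18194 named alone by a probe set, read by 76 of the 45101 probe sets of the Affymetrix MOE430 2.0 mouse array. A probe set is a group of short oligonucleotides against 1 transcript, and the probe set with the highest mean signal stood for its gene. There were 3 arrays of NHE3-/- colon and 3 arrays of colon from wild-type (NHE3+/+) littermates, all from mice of 6 to 8 weeks with no treatment named. The colon of each was taken whole for RNA extraction. Of the 37 members, 35 passed the filter on low signal and were tested. The question was whether transcripts of the proteasome differ in level between the genotypes.

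The proteasome is the protease of the cytosol and nucleus that degrades proteins tagged with ubiquitin. Its core is a barrel of stacked rings, with outer rings of alpha subunits that gate the entrance and inner rings of beta subunits, of which Psmb5, Psmb6 and Psmb7 carry the proteolytic sites. A regulatory particle caps the barrel: ring-shaped ATPases (Psmc genes) unfold the substrate, and non-ATPase subunits (Psmd genes) bind and remove ubiquitin. Immune signals such as interferon-gamma induce Psmb8, Psmb9 and Psmb10, which take the places of Psmb5, Psmb6 and Psmb7 in newly built particles and change which peptides are cut. When proteasome activity falls short, the transcription factor Nfe2l1 raises many subunit genes together through antioxidant response elements in their promoters.

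Because that response acts on promoters, the letters TGACNNNGC (the core of the antioxidant response element, searched on both strands) were looked up in RefSeq promoter windows of assembly GRCm38.p6, each from 250 bases before to 50 after a gene's start. The table held 30 of the 37 members, in 32 windows. The letters occurred in 5 member windows (15.6%) and in 12.4% of all 32851 windows. Another common promoter motif, CCAAT, occurred in 13 member windows (40.6%) and in 37.4% of all windows, and the 2 motifs overlapped in 0 member windows. The member matches are shown with flanks, 5′ to 3′ on the gene's strand, with the match in capitals, because Psmb5 and Psmb6 are catalytic subunits and the others belong to the regulatory particle or its assembly.
Psmb5: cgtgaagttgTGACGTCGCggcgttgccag
Psmb6: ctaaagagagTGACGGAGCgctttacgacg
Psmc6: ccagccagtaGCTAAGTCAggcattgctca
Psmd12: tctGCTGTGTCAcatttgccccc
Psmd9: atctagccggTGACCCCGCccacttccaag
They lie at chr14:54618023-54618052 (minus strand) for Psmb5, chr11:70525338-70525367 (plus strand) for Psmb6, chr14:45329587-45329616 (plus strand) for Psmc6, chr11:107479278-107479300 (plus strand) for Psmd12 and chr5:123228149-123228178 (plus strand) for Psmd9. The match of Psmb6 begins 9 bases before the start site that the promoter table uses, that of Psmd9 31 bases and that of Psmb5 47 bases. For Psmb6 the annotated gene begins further upstream than that start site, so the match lies within the annotated gene. In Psmc6 and Psmd12 the letters read on the opposite strand. A match is a description of the letters and not a site shown to be used.

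The arrays correlated at 0.965 to 0.973 within NHE3-/- and 0.969 to 0.97 within NHE3+/+ (log2 signals over 27024 probe sets), against 0.932 to 0.959 between genotypes. Whether each array is a different animal is not in the labels, and p-values rest only on the spread of these arrays, which may be technical. Slc9a3 itself was read by 2 probe sets, and the brighter had 5970.4, 4266 and 3665 on the NHE3-/- arrays, against 5908, 5647 and 6669 on the NHE3+/+ arrays (log2 fold change -0.42, limma adjusted p = 0.12). It was called lower without NHE3-/- array 1 (-0.61, adjusted p = 0.0199) and with NHE3-/- array 3 alone (-0.72, adjusted p = 0.0274). The dimmer Slc9a3 probe set went the other way, with 473, 609 and 265 on the NHE3-/- arrays, against 346, 345 and 108 on the NHE3+/+ arrays (log2 fold change 0.76, limma adjusted p = 0.23). Where the disruption lies in Slc9a3 is not in the labels, and whether these probe sets fall within it was not tested. Xist, the RNA of the inactive X chromosome in female cells, had 2639 and 1929 on NHE3-/- arrays 1 and 2 and 12.3 on array 3, against 4.3, 8 and 2 on the NHE3+/+ arrays. No NHE3+/+ array had such a signal, so genotype and Xist signal are partly confounded in the fit of all 6 arrays. Of the genes described below, Psmd10 and Ubqln2 lie on the X chromosome. Results were therefore also computed with NHE3-/- array 3 alone against wild type. That fit has 1 NHE3-/- array, whose spread is borrowed from wild type, so a call lost there need not mean a smaller difference. Markers of epithelium and goblet cells were bright, and the 6 smooth muscle markers summed to 1130.0 to 2420.0 in NHE3-/- and 1488 to 1747 in NHE3+/+. Most of that sum was Acta2, at means of 1104 in NHE3-/- and 1030.0 in NHE3+/+, whereas Myh11 averaged 132 in NHE3-/- and 141 in NHE3+/+, and Des 101 in NHE3-/- and 103 in NHE3+/+.

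Transcripts of the constitutive proteasome differed little between the genotypes. Of the 35 members tested, 1 rose in NHE3-/- colon and 0 fell (limma, Benjamini-Hochberg adjusted p under 0.05 over 27024 probe sets; 8 members, and 27.6% of all probe sets tested, at an unadjusted p under 0.05). Among all probe sets tested 11.2% were called, 4.97% higher and 6.24% lower. Among the 9069 probe sets with a mean signal in the range of the subunits (577 to 8095), 9.71% were called higher and 10.0% lower. A single call among 35 members is thus no excess over either background. With array medians set equal the split over all probe sets tested was 5.9% higher and 2.73% lower, and the member counts were the same. The log2 fold changes of the tested members had a median of 0.00 and a standard deviation of 0.21 between genes, beside a median of -0.10 and a standard deviation of 0.48 over all probe sets tested. A member that was not called is not shown to be unchanged, and its interval gives the change it allows. By sign the tested members divided into 18 above 0 and 17 below, while 40.1% of all probe sets lay above 0. Of the 9069 probe sets in the subunits' range of signal, 4224 lay above 0, and their median was -0.03. In whole tissue, fewer cells of a type and less RNA per cell cannot be told apart.

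**Figure D1:**
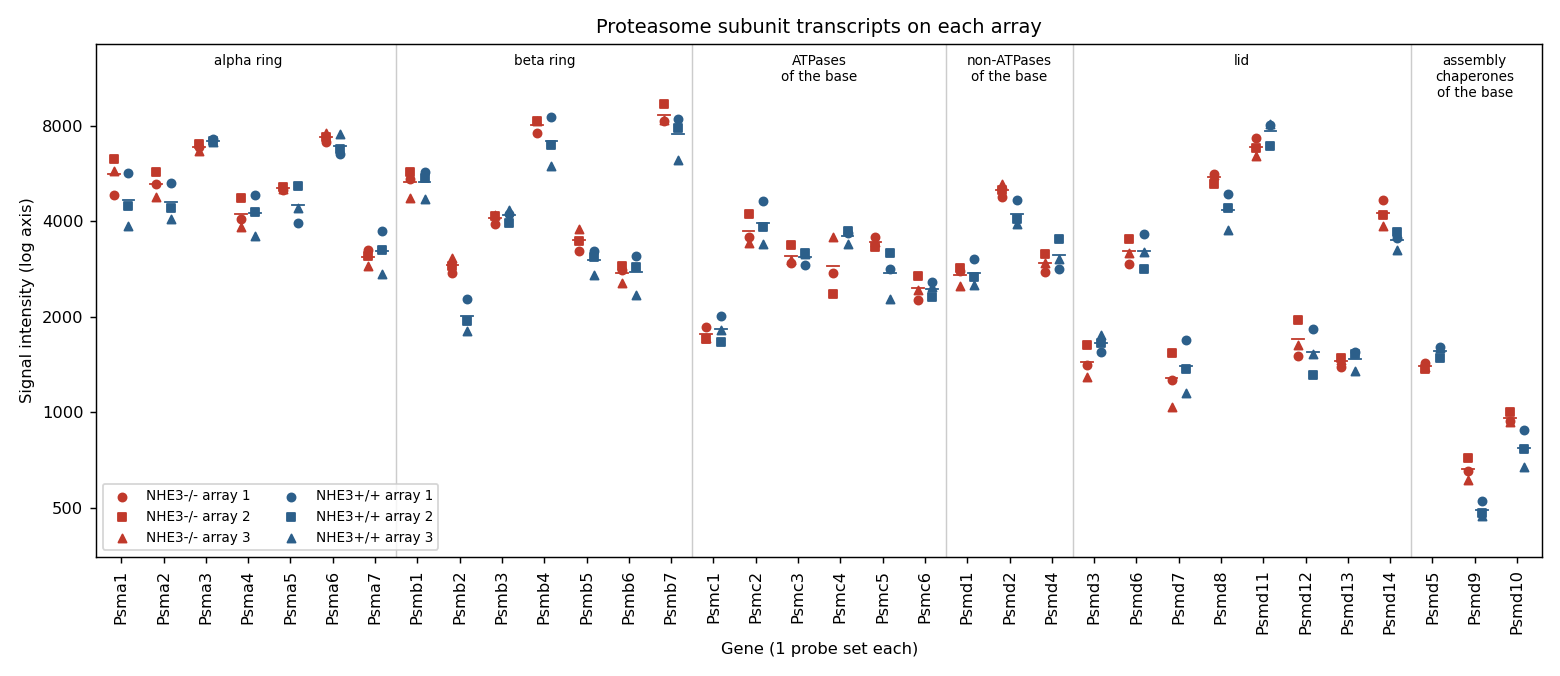
Signal intensity (log axis) of the 34 tested subunit and chaperone genes on each of the 6 arrays, NHE3-/- in red and NHE3+/+ in blue, with a bar at each group mean. The genotypes overlap for most genes, and all NHE3-/- arrays lie above all NHE3+/+ arrays for Psmb2, Psmc5, Psmd2, Psmd8, Psmd14, Psmd9 and Psmd10.

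The members were measured more tightly than most probe sets. The standard error of the log2 fold change had a median of 0.12 for the members and 0.21 for all probe sets tested. For probe sets with a mean signal in the range of the subunits that median was 0.14, close to that of the members. For 27 of the 35 members (77.1%) the 95% interval lay wholly within a 1.5-fold change either way, as it did for 28.3% of all probe sets tested. Among the 9069 probe sets with a mean signal in the range of the subunits, 577 to 8095, that share was 55.5% and 19.8% were called. For 34 of the 35 members the interval excluded a change of 2-fold in either direction, Psmc3ip being the exception. It did so for 70.5% of all probe sets tested and for 7984 of the 9069 in the subunits' range of signal.

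**Figure D2:**
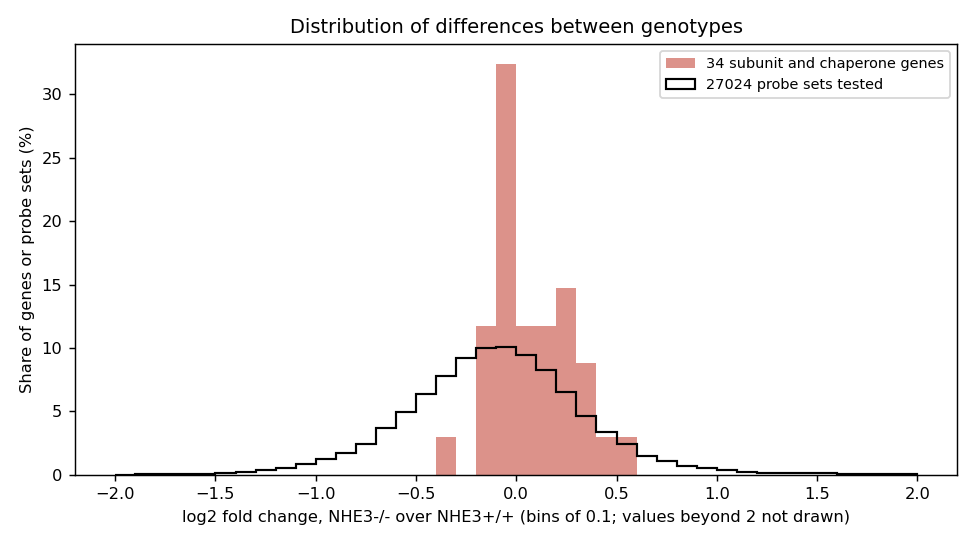
Share of genes or probe sets (%) by log2 fold change, NHE3-/- over NHE3+/+, in bins of 0.1, for 34 subunit and chaperone genes (filled) and 27024 probe sets tested (line). The proteasome genes lie between -0.33 and 0.53, within the middle of the broader distribution.

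The 1 called member was Psmb2, which encodes a beta ring subunit without proteolytic activity. Its signals were 2757, 2893 and 3066 on the NHE3-/- arrays and 2277, 1939 and 1809 on the NHE3+/+ arrays. Every NHE3-/- array lay above every NHE3+/+ array. The means were 2905 ± 155 in NHE3-/- and 2008 ± 242 in NHE3+/+ (SD, n = 3 each). The log2 fold change was 0.53 (SE 0.12, 95% interval 0.27 to 0.79, limma adjusted p = 0.0156), which is 1.45-fold. With NHE3-/- array 3 alone it was 0.61. The call was lost without NHE3-/- array 3 (0.49, adjusted p = 0.0577), NHE3+/+ array 2 (0.51, adjusted p = 0.0597) or NHE3+/+ array 3 (0.46, adjusted p = 0.0559). Without the mean-variance trend the log2 fold change stood at 0.53 with an adjusted p of 0.087. The adjusted p lay between 0.0112 and 0.087 in all alternatives tried. Psmb2 had no other probe set, and the promoter table did not hold it.

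Among the catalytic subunits none passed the test. Psmb5, which cuts after hydrophobic residues, had 3222, 3477.5 and 3773 in NHE3-/-, against 3236, 3096 and 2703 in NHE3+/+. The groups overlapped through NHE3-/- array 1, and the log2 fold change was 0.21 (SE 0.11, 95% interval -0.03 to 0.46, limma adjusted p = 0.248). Psmb7, which cuts after basic residues, had 8308, 9366 and 8324 in NHE3-/-, against 8426, 7892 and 6256 in NHE3+/+. Its log2 fold change was likewise 0.21 (SE 0.12, 95% interval -0.06 to 0.48, limma adjusted p = 0.29), with NHE3+/+ array 3 lowest. Psmb6, which cuts after acidic residues, had 2808, 2899.9 and 2552 in NHE3-/-, against 3109, 2877 and 2349.8 in NHE3+/+. The values interleaved, and the log2 fold change was -0.01 (SE 0.12, 95% interval -0.28 to 0.27). Of the structural beta subunits besides Psmb2, the log2 fold change was 0.00 for Psmb1, -0.03 for Psmb3 and 0.18 for Psmb4, with all 3 overlapping between genotypes. The thymus beta subunit Psmb11 did not pass the filter, with signals of 14.6, 39.5 and 31.4 in NHE3-/- and 3.9, 23.5 and 5.6 in NHE3+/+.

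The alpha ring showed no called member among 7 tested. Log2 fold changes ran from -0.07 for Psma3 to 0.28 for Psma1, with a median of 0.09. Psma1 had 4847.5, 6301 and 5757 in NHE3-/- and 5683, 4476 and 3873.5 in NHE3+/+ (SE 0.15, limma adjusted p = 0.253), where NHE3+/+ array 1 reached into the NHE3-/- range. Psma2 had 5259, 5726 and 4762.5 in NHE3-/- and 5299.5, 4409 and 4068 in NHE3+/+, a log2 fold change of 0.20 (SE 0.12, limma adjusted p = 0.325), again with NHE3+/+ array 1 inside the NHE3-/- range. With the mean of all its probe sets Psma1 had -0.28, also uncalled. For Psma3 all 3 NHE3-/- arrays (6858.5, 7022 and 6675) lay below all 3 NHE3+/+ arrays (7255, 7168 and 7111), yet the means were 6852 ± 174 in NHE3-/- and 7178 ± 72.6 in NHE3+/+ (SD, n = 3 each) and the difference did not pass (limma adjusted p = 0.672). Psma4, Psma5, Psma6 and Psma7 lay between -0.06 and 0.18. Psma8, an alpha subunit of the testis, was below the filter at 4.4, 17.6 and 43.7 in NHE3-/- and 24.8, 35 and 9.3 in NHE3+/+.

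**Figure D3:**
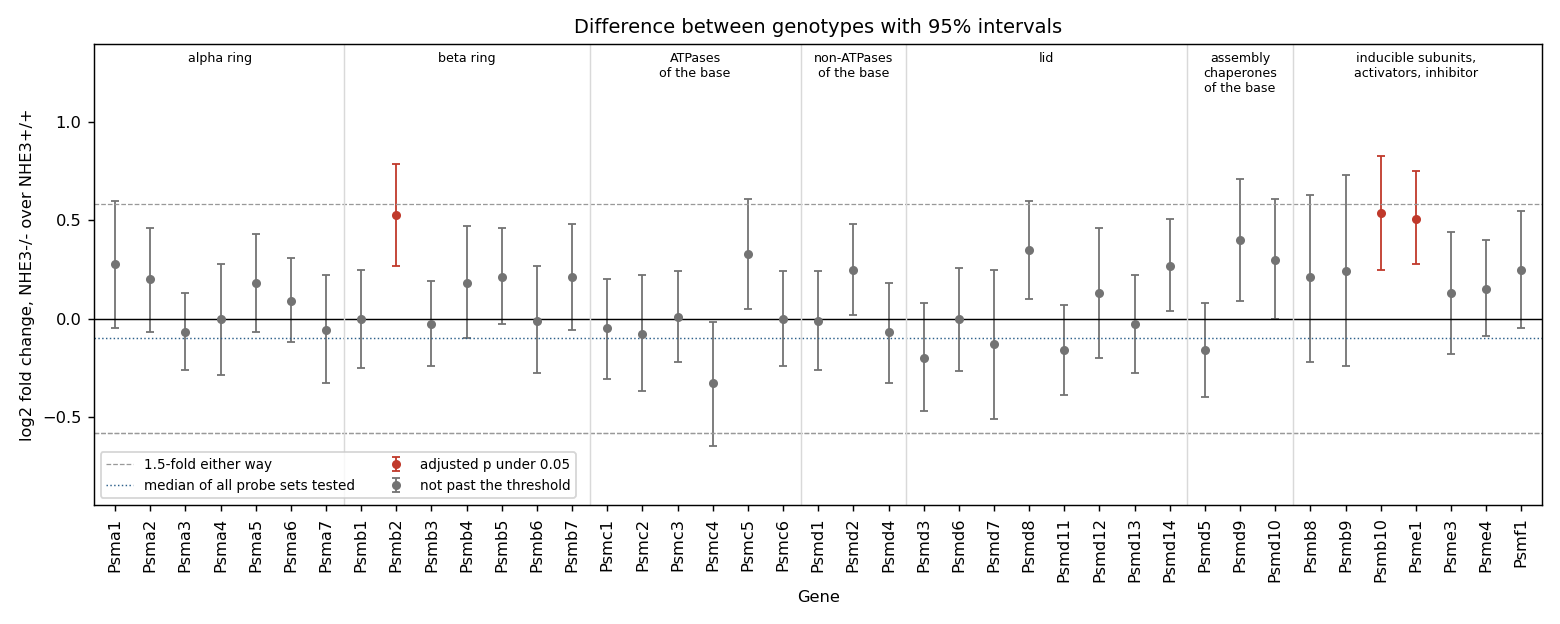
Log2 fold change, NHE3-/- over NHE3+/+, with 95% intervals for the tested subunit and chaperone genes by role and, at the right, for the inducible subunits, activators and inhibitor. Psmb2, Psmb10 and Psme1 (red) passed the adjusted p threshold, dashed lines mark 1.5-fold and the dotted line the median of all probe sets tested, -0.10.

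The ATPases of the base split in sign, 3 above 0 and 3 below, and 0 of 6 were called. Psmc5 had 3562, 3316 and 3432 in NHE3-/- and 2821, 3171 and 2284 in NHE3+/+, so the genotypes did not overlap. Its log2 fold change was 0.33 (SE 0.13, 95% interval 0.05 to 0.61, limma adjusted p = 0.124). Psmc4 gave the lowest value of the ATPases: it had 2740, 2363 and 3571 in NHE3-/- and 3682, 3730.3 and 3392 in NHE3+/+, and the log2 fold change was -0.33 (SE 0.14, 95% interval -0.65 to -0.02, limma adjusted p = 0.158). NHE3-/- array 3 lay inside the NHE3+/+ range while arrays 1 and 2 lay below it, and without array 3 Psmc4 was called lower (-0.49, adjusted p = 0.0392). Its other probe set had 1935, 2059 and 2009.8 in NHE3-/- and 1999, 1892 and 1637 in NHE3+/+, a log2 fold change of 0.12. Psmc1, Psmc2, Psmc3 and Psmc6 lay between -0.08 and 0.01.

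Of the 3 non-ATPases of the base, Psmd2 stood highest. This scaffold, which binds the shuttle proteins that deliver ubiquitinated cargo, had 4771, 5028 and 5245 in NHE3-/- and 4685.5, 4083 and 3929.6 in NHE3+/+. The genotypes did not overlap, and the log2 fold change was 0.25 (SE 0.10, limma adjusted p = 0.156). The ubiquitin receptor Psmd4 had 2777, 3156.5 and 2961 in NHE3-/- and 2831, 3517 and 3051 in NHE3+/+, with overlapping values and a log2 fold change of -0.07 (SE 0.11, limma adjusted p = 0.716). Psmd1, the other large scaffold, had -0.01.

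In the lid, which holds the deubiquitinase, 0 of 8 members passed. Psmd8 came closest, with 5653, 5265 and 5598 in NHE3-/- and 4874, 4394 and 3764 in NHE3+/+. The genotypes did not overlap, and the log2 fold change was 0.35 (SE 0.11, 95% interval 0.10 to 0.60, limma adjusted p = 0.0736). It was called without NHE3+/+ array 1 (0.43, adjusted p = 0.0433) and in no other alternative. Psmd14, the metalloprotease that strips ubiquitin from substrates entering the particle, had 4685, 4184 and 3877 in NHE3-/- and 3550.5, 3692 and 3258 in NHE3+/+. Here too the genotypes did not overlap (log2 fold change 0.27, SE 0.11, limma adjusted p = 0.129). The 6 remaining lid subunits ran from -0.20 for Psmd3 to 0.13 for Psmd12, all overlapping.

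The assembly chaperones of the base, which hold ATPases until the particle is complete and then leave, gave the highest median by role, 0.30, over 3 genes with no call. Psmd9 had 652, 719 and 612 in NHE3-/- and 526, 481.5 and 471 in NHE3+/+ (log2 fold change 0.40, SE 0.14, 95% interval 0.09 to 0.71, limma adjusted p = 0.0952), and with quantile normalization it was called higher (0.53, adjusted p = 0.0426). Psmd10, also known as gankyrin, had 937, 999 and 934.5 in NHE3-/- and 881, 767 and 672 in NHE3+/+ (log2 fold change 0.30, SE 0.14, limma adjusted p = 0.179). For both, every NHE3-/- array lay above every NHE3+/+ array. With NHE3-/- array 3 alone the log2 fold change of Psmd10 was 0.27. Psmd5 went the other way without overlap, with 1435, 1374 and 1387 in NHE3-/- and 1611.5, 1487 and 1591 in NHE3+/+ (log2 fold change -0.16, SE 0.11, limma adjusted p = 0.383). Psmc3ip, which the symbol rule took although it encodes a partner protein of meiotic recombination and no subunit, was dim at 77.6, 132 and 27.8 in NHE3-/- and 117, 119.7 and 95.9 in NHE3+/+. Its log2 fold change, -0.48, was the lowest of the members (95% interval -1.29 to 0.34, limma adjusted p = 0.434). Its other probe set, dimmer still, gave -0.82 with all NHE3-/- arrays below (95% interval -1.59 to -0.04, limma adjusted p = 0.162).

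Across roles, arrays of the genotypes did not overlap for 9 of the 35 members, 7 with NHE3-/- above and 2 with NHE3-/- below. That count takes 1 probe set per gene: over all 63 tested probe sets of the members, 8 had NHE3-/- above and 7 had NHE3-/- below. The background was 32.3% of all probe sets tested, 12.2% with NHE3-/- above and 20.1% with NHE3-/- below. Of the 9069 probe sets with a mean signal in the range of the subunits, 1868 had NHE3-/- above and 2104 had NHE3-/- below. Besides Psmb2, the 6 members with NHE3-/- above were Psmc5, Psmd2, Psmd8, Psmd14, Psmd9 and Psmd10, which belong to the regulatory particle or its assembly. So do most of the subunit and chaperone genes tested: 17 encode parts of that particle and 3 its assembly chaperones, against 14 for the core. The 5 members with the element letters in their promoter had a median log2 fold change of 0.13, from -0.01 for Psmb6 to 0.40 for Psmd9, with 0 called. The 24 tested members whose windows lacked the letters had a median of -0.01, also with 0 called, and the difference was not tested. The promoter table did not hold Psmb2, the only called member, so the absence of calls in both groups was fixed beforehand.

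Many of the members were lowest or highest on the same NHE3+/+ arrays. Of the 34 subunit and chaperone genes tested, 18 were lowest of the 6 arrays on NHE3+/+ array 3 and 12 were highest on NHE3+/+ array 1. These counts were not made for other probe sets, so whether the pattern is particular to these genes was not tested. The median over genes of the log2 signal relative to the wild-type mean was 0.02, 0.13 and -0.01 on NHE3-/- arrays 1, 2 and 3, against 0.12, -0.01 and -0.11 on NHE3+/+ arrays 1, 2 and 3. Over all probe sets tested those medians lay between -0.09 and -0.08 for NHE3-/- and between -0.02 and 0.02 for NHE3+/+. The standard deviation of the log2 signal between replicates had a median of 0.10 in NHE3-/- and 0.15 in NHE3+/+ for these genes, and it was larger in NHE3+/+ for 26 of 34. For the 9069 probe sets of the same brightness the medians were 0.13 in NHE3-/- and 0.15 in NHE3+/+, with NHE3+/+ larger for 4922.

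**Figure D4:**
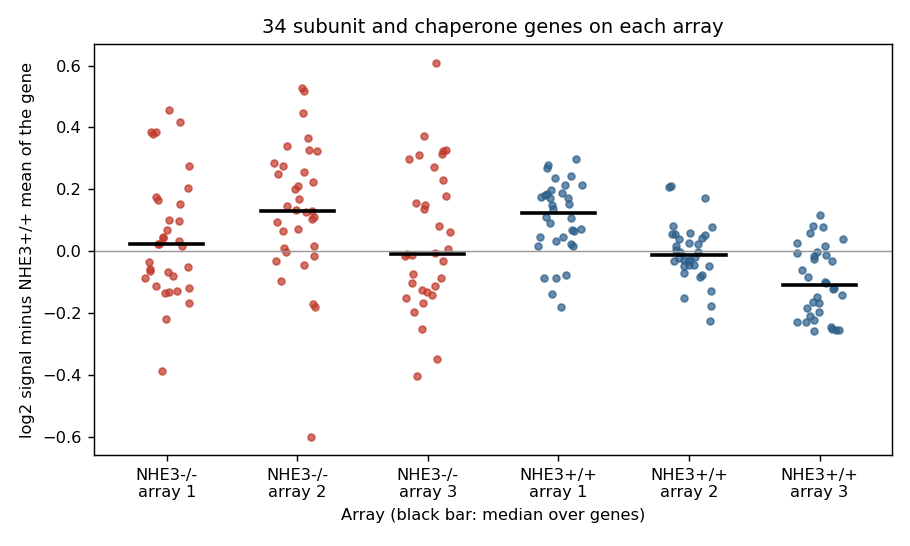
Log2 signal of 34 subunit and chaperone genes on each array minus the gene's NHE3+/+ mean, which centres the NHE3+/+ points by construction. Black bars mark the median over genes: they are 0.02, 0.13 and -0.01 for NHE3-/- and 0.12, -0.01 and -0.11 for NHE3+/+ arrays 1 to 3.

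Several probe sets of a gene did not always give the same direction. Of the 76 probe sets 63 were tested, and 1 of them, that of Psmb2, was called. Of 17 members with more than 1 tested probe set, 10 had values on both sides of 0, and the median gap between highest and lowest was 0.34. For Psmd11, a lid subunit, 5 tested probe sets ran from -0.32 to 0.09. The brightest gave -0.16, with 7327, 6813 and 6439.7 in NHE3-/- and 8072, 6906 and 8107 in NHE3+/+. A second gave -0.30 and separated the genotypes, at 1923, 2117 and 2085 in NHE3-/- and 2721, 2202 and 2642 in NHE3+/+. For Psma5 the brightest had 5019, 5149.8 and 5064 in NHE3-/- and 3942, 5175 and 4399 in NHE3+/+, a log2 fold change of 0.18. The next gave 0.32 without overlap, at 2758, 3137.5 and 2700.5 in NHE3-/- and 2476, 2187 and 2187 in NHE3+/+ (limma adjusted p = 0.0869). A dimmer probe set of Psma3 gave -0.70 (95% interval -1.23 to -0.16, limma adjusted p = 0.0913). A second bright probe set of Psmc2 gave -0.33 (95% interval -0.58 to -0.07, limma adjusted p = 0.0947). For both, all NHE3-/- arrays lay below all NHE3+/+ arrays. With the mean over all probe sets of each gene, 1 member was again called higher, Psmb2, and 0 lower.

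**Figure D5:**
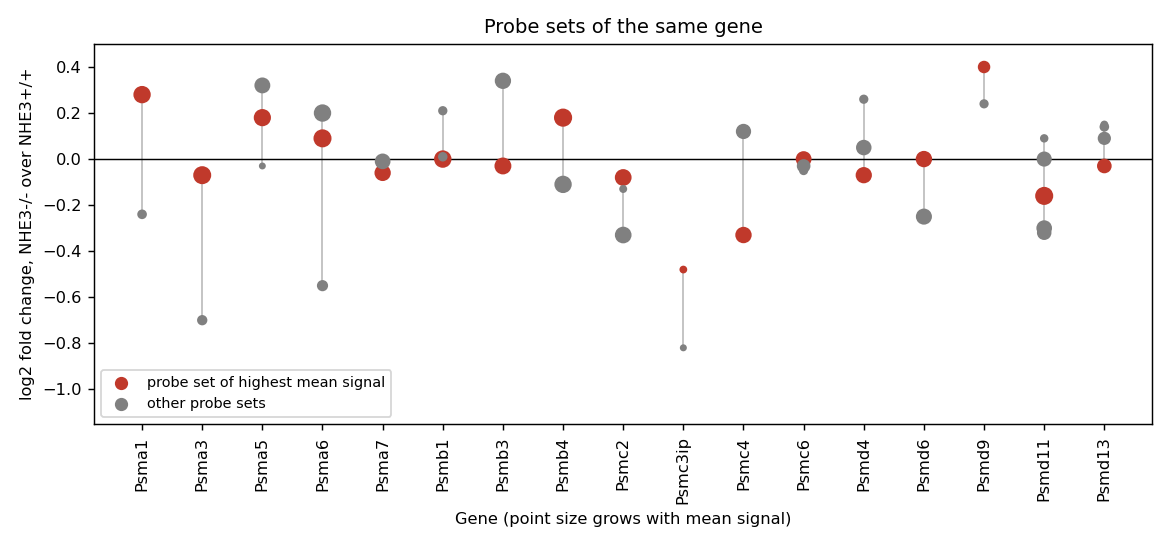
Log2 fold change, NHE3-/- over NHE3+/+, of each tested probe set for the 17 members with more than 1, red for the probe set of highest mean signal and grey for the others, point size growing with mean signal. The widest gap is 0.76, for Psma6, and 10 genes have values on both sides of 0.

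The inducible subunits and activators were set beside the constitutive ones. The list was chosen with the calls of Psmb10 and Psme1 known, so its counts are no independent evidence. Of 8 listed genes 7 were measured through a probe set of their own, 2 rose and 0 fell. Psmb10 had 5409.6, 6789 and 5299 in NHE3-/- and 4003, 4562 and 3450.4 in NHE3+/+ (log2 fold change 0.54, SE 0.13, limma adjusted p = 0.0264). Psme1, a subunit of the ring that opens the core without ATP, had 7801, 8360.2 and 7634 in NHE3-/- and 5817, 6006 and 4893 in NHE3+/+ (log2 fold change 0.51, SE 0.11, limma adjusted p = 0.0123). Neither gene overlapped between genotypes. With NHE3-/- array 3 alone the log2 fold change was 0.41 for Psmb10 and 0.46 for Psme1. Psme1 lost its call without the mean-variance trend (0.51, adjusted p = 0.0898). Psmb10 also lost its call without NHE3-/- array 2 (0.43, adjusted p = 0.0848), NHE3+/+ array 1 (0.54, adjusted p = 0.0556) or NHE3+/+ array 3 (0.44, adjusted p = 0.0908), with quantile normalization (0.44, adjusted p = 0.0593) and without the trend (0.54, adjusted p = 0.118). Psmb8 had 2449, 4218 and 2521 in NHE3-/- and 2601, 2963 and 2194 in NHE3+/+. Psmb9 had 1583, 2709.7 and 1467 in NHE3-/- and 1760.1, 1759 and 1223 in NHE3+/+. Both were high on NHE3-/- array 2 alone, and neither passed (log2 fold changes 0.21 and 0.24, limma adjusted p = 0.533 and 0.518).

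Each inducible subunit was then set against the constitutive subunit it replaces, as the difference between genotypes in the log2 signal of the one minus the other. For Psmb10 minus Psmb7 the 3 values were -0.62, -0.46 and -0.65 in NHE3-/- and -1.07, -0.79 and -0.85 in NHE3+/+, a difference of 0.33. The genotypes did not overlap, and the exact permutation test gave p = 0.1 (two-sided), the smallest that 3 against 3 arrays allow, and 0.3 adjusted over the 3 pairs. For Psmb9 minus Psmb6 the difference was 0.25 (exact permutation p = 0.5, adjusted p = 0.75), with SDs of 0.41 in NHE3-/- and 0.11 in NHE3+/+ (n = 3 each). For Psmb8 minus Psmb5 it was -0.01 (exact permutation p = 1, adjusted p = 1). No pair therefore passed, and the design could not have passed 0.05.

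Other genes of the pathway gave few calls. Among 5 measured assembly factors of the core and base 0 were called, Psmg4 being lowest at -0.38 and Psmg3 highest at 0.33, with Pomp, which matures the core, at 0.14. Among 8 measured further parts and bound enzymes 0 were called, and log2 fold changes ran from -0.32 for the ligase Ube3a to 0.17 for the ligase Ube3c. The lid part Sem1 had 0.05 and the deubiquitinases Uchl5 and Usp14 had -0.05 and -0.21. Among 8 measured transcription factors of proteasome genes and their processing factors 0 were called. Nfe2l1 had 1587, 1372 and 1484.5 in NHE3-/- and 1427, 1734 and 1720.0 in NHE3+/+, overlapping, with a log2 fold change of -0.13 (SE 0.12, limma adjusted p = 0.535). Keap1, which marks Nfe2l2 for degradation, had -0.40 (SE 0.13, limma adjusted p = 0.0789) and Nfe2l2 itself -0.10.

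Of 12 measured genes of ubiquitin activation and shuttling, 1 rose and 1 fell. Ubd, a ubiquitin-like modifier that sends proteins to the proteasome, had 1859.7, 2131 and 4971 in NHE3-/- and 208, 317 and 299 in NHE3+/+ (log2 fold change 3.18, SE 0.31, limma adjusted p = 0.000136). Ubqln2, a shuttle that carries ubiquitinated proteins to the regulatory particle, had 787, 941 and 984 in NHE3-/- and 1789.9, 1279 and 1649 in NHE3+/+ (log2 fold change -0.77, SE 0.15, limma adjusted p = 0.00923). The genotypes did not overlap for either gene. The call for Ubqln2 was lost with medians set equal (-0.65, adjusted p = 0.0546), without the trend (-0.77, adjusted p = 0.0601) and with the mean of all its probe sets (-0.43, adjusted p = 0.127). With NHE3-/- array 3 alone the log2 fold change of Ubqln2 was -0.65. Vcp, the ATPase that extracts ubiquitinated proteins, had -0.07.

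Markers of cell types moved between the same arrays. Of 5 measured markers of dividing cells 4 fell, with summed signals of 8241 to 9874 in NHE3-/- and 10430 to 13950 in NHE3+/+, and of 4 markers of absorptive colonocytes 3 rose, with sums of 125300 to 171800 in NHE3-/- and 85810 to 110400 in NHE3+/+. Of 8 epithelial markers 1 rose and 2 fell, with sums of 138800 to 160300 in NHE3-/- and 135300 to 151700 in NHE3+/+. Of 3 tested exocrine pancreas markers 1 fell, Clps (log2 fold change -2.36, limma adjusted p = 0.000196). With Cpa1 and Ctrb1, which were below the filter, the pancreas sums were 490.1 to 783.0 in NHE3-/- and 1335 to 2961 in NHE3+/+. Of 2 tested adipocyte markers Cidec rose (0.97, limma adjusted p = 0.0301) and Adipoq fell (-1.77, limma adjusted p = 0.0484). With Lep, which was below the filter, the adipocyte sums were 390.7 to 542.8 in NHE3-/- and 300.3 to 807.4 in NHE3+/+. Of 3 measured B cell markers 0 passed, with sums of 359.9 to 1230.0 in NHE3-/- and 1099 to 2959 in NHE3+/+. The lists for goblet cells, smooth muscle, T cells and macrophages also held 0 calls, among 5, 5, 4 and 4 measured markers. The part of these markers in the values of the proteasome genes was not tested.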

How the data were processed

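Total RNA of whole mouse colon was hybridised to Affymetrix MOE430 2.0 arrays with a single biotin label, 3 for NHE3-/- and 3 for NHE3+/+. The deposited values are linear signal intensity per probe set, made by the authors with GCOS per the submitters' processing notes; its version and settings are not given in the sources used here. Every array had a mean of 500 once 2% of values at either end were trimmed, and array medians ran from 97.8 to 121.4; signals are not centred. Precision is limited by the small number of arrays.

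Then log2(signal + 31.4) was computed (25th percentile of all values), which understates changes of dim transcripts. Controls were dropped, as were probe sets whose mean lay below the 40th percentile, which left 27024 for limma 3.58.1 in R 4.3.3 (trend on mean level, a two-sided test of genotype with no covariate, Benjamini-Hochberg adjusted p, threshold 0.05). The fit was tested on simulated data with few changed probe sets, drawn at random from all those tested. It called no change in the wrong direction, but missed all log2 changes of 0.5 and recovered 32% of those of 1. The median standard error was 0.21 for all probe sets tested and 0.12 for the members, so this recovery does not describe the power for these genes. Symbols came from the platform annotation, and 34754 of 34958 probe sets naming 1 gene matched RefSeq (GRCm38.p6) by gene ID. Listed genes without such a probe set were not analysed here. Values are given for called members and the next by raw p up to 12, for fixed catalytic, receptor and inducible subunits, and for called related genes. The members and lists were chosen with earlier results of these data known. Alternatives were pseudocounts of 1 and 100, no filter, 2 normalizations, no trend, a replicate block, all probe sets per gene, and leaving out arrays.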

Additional observations from a re-analysis of the deposited data

How the results depend on the processing

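Psmb2 kept its direction in every alternative, with log2 fold changes of 0.46 to 0.62 without 1 array, and the named genes, Psmb2 included, gave 280 values with the same side of the threshold and direction, 17 that lost a call, 5 that gained one and 13 that changed sign. The count of members called higher was 0 without the mean-variance trend and 0 with NHE3-/- array 3 alone, and 2 with quantile normalization, which added Psmd9 (0.53, adjusted p = 0.0426). Without 1 array it ran from 0 to 2, the members called lower from 0 to 1 and the members' median from -0.04 to 0.07. The count was 0 without NHE3-/- array 3, NHE3+/+ array 2 or NHE3+/+ array 3, and 2 without NHE3+/+ array 1. With medians set equal the members' median was 0.12 and that of all probe sets 0.01, a shift of the scale: relative to all probe sets tested the members' median stood 0.10 higher as deposited and 0.11 higher at equal medians, and at -0.03 under quantile normalization. As deposited, the 9069 probe sets in the subunits' range of signal had a median of -0.03, closer to the members' median than that of all probe sets.

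Over all probe sets, 1342 higher and 1685 lower as deposited became 1595 and 738 with medians set equal, 511 and 558 without the trend, and 767 and 1268 with NHE3-/- array 3 alone, where the spread of the lone array is borrowed from wild type. Without 1 array the counts ran from 839 to 1211 higher and from 775 to 1385 lower; 839 was without NHE3-/- array 3, and the lower counts were 1011 and 832 without NHE3-/- arrays 1 and 3 and 843 and 775 without NHE3+/+ arrays 2 and 3. Psmb8 minus Psmb5 was 0.01 with quantile normalization, 0.10 with the mean of all probe sets and -0.26 to 0.17 without 1 array; the other pairs ran from 0.01 to 0.37 (Psmb9 minus Psmb6) and 0.24 to 0.38 (Psmb10 minus Psmb7). Some uncalled values changed sign: Psmb6 was 0.11 and Psmd4 0.04 with medians set equal, Psma1 was -0.28, Psmd4 0.08 and Slc9a3 0.17 with the mean of all probe sets, and Psmb8 was -0.03 and Psmb9 -0.09 with NHE3-/- array 3 alone. Without 1 array Psmb6 ran from -0.12 to 0.08, Psmd4 from -0.14 to 0.01, Psmb8 from -0.05 to 0.34 and Psmb9 from -0.03 to 0.40. The causes were not tested.

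The labels number the arrays 1 to 3 in each genotype, but same-numbered arrays did not deviate together (correlations of 0.0264, -0.0376 and 0.00337). Whether they share an origin is not in the labels, and these correlations cannot settle it. With a replicate block 1156 probe sets were higher and 1384 lower, and 1 member was called higher and 0 lower. Dim members (Psma8, Psmb11, Psmc3ip) lie near the array background. Psma8 and Psmb11 were not tested, and the 95% interval of Psmc3ip was wide, from -1.29 to 0.34.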
